A study of Mus musculus with 16 samples.

Results

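Cytosolic ribosomal protein genes were taken as the probe sets whose platform symbol follows the Rpl, Rps or Rplp naming pattern, with Rpsa added and the Rps6k kinases left out. The rule gave 63 probe sets for 63 genes, of 19505 genes with a probe set on the array. They comprised 31 proteins of the large subunit, 22 of the small subunit (Rpsa among them), the stalk proteins Rplp0 and Rplp1, and 8 paralogs that carry an l in their symbol. No row was listed under Rplp2, Rpl10, Rpl26, Rpl26l1, Rps27 or Rps27a, and these genes were not analysed here. Group means were above the background level of the array, log2 4.80, in at least 1 group for 60 of the 63 genes, while Rpl10l, Rpl39l and Rpl3l were below it in every group.

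The RNA came from olfactory mucosa of S100a5-tauGFP mice, C57BL/6 animals of both sexes aged 7 to 12 weeks that carry a tauGFP reporter named for the activity-regulated gene S100a5. The 24 mice stayed singly in chambers under clean air for 40 h, and from 26 h on they received either the odorant undecanal or filtered air as vehicle for 10 s every 20 min. Cells of 3 mice at a time were dissociated and sorted by GFP, which gave 8 pools and 16 arrays. The 4 groups of 4 arrays were vehicle titled GFP-, vehicle titled GFP+, undecanal titled GFP- and undecanal titled GFP+; all 4 shared strain and reporter. The labels say neither which cells besides S100a5-expressing neurons carry GFP nor how the gates were set. In all 16 samples the GFP sign of the title contradicts that of the cell type label, and each fraction carries the name in its titles here. If the cell type labels are right, every difference between fractions turns its sign.

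The ribosome is built from ribosomal RNA and matched amounts of the ribosomal proteins, and the genes for these proteins are usually expressed together at high levels. Many of their mRNAs begin with a run of pyrimidines at the cap, through which growth signals acting on the kinase mTOR and the binding protein Larp1 set their translation. In the olfactory epithelium, neurons are renewed throughout life from dividing basal cells, so that cells at several stages of growth lie beside mature neurons.

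Promoter windows from RefSeq (GRCm38.p6), running from 250 bases before to 50 bases after the annotated start, were found for 50 of the 63 genes. The stretches printed here run from 50 bases before to 20 bases after that start. They show the genes with the largest fraction differences in vehicle pools among those with a window (Rplp0, Rps16, Rpl31, Rps24, Rps15a). A ranking by undecanal pools would have brought in others, such as Rpl35a, Rps26 and Rps28. Also shown are the signalling target Rps6 and the paralogs Rpl22l1 and Rps27l. Capitals mark searched letters. CCGGAAG was searched on both strands, and so was AAGATGG, the letters of a YY1-type site, as well as GGGCGG, those of an Sp1-type site. CTCTTTC was searched on the sense strand, as was TATAAA, the letters of a TATA box. A pyrimidine tract was a cytosine followed by at least 5 further pyrimidines, beginning within 10 bases of the annotated start.
Rplp0, chr5:115559417-115559486, plus strand: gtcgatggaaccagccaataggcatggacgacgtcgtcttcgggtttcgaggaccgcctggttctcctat
Rps16, chr7:28350639-28350708, plus strand: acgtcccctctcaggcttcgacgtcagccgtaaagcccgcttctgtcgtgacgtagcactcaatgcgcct
Rpl31, chr1:39367801-39367870, plus strand: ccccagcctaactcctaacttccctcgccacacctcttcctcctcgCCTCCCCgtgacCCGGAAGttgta
Rps24, chr14:24490628-24490697, plus strand: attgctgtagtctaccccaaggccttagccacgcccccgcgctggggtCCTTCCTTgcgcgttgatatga
Rps15a, chr7:118116128-118116197, minus strand: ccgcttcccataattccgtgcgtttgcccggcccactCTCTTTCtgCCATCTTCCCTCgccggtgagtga
Rps6, chr4:86857348-86857417, minus strand: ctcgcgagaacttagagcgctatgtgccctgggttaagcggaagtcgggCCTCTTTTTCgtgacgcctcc
Rpl22l1, chr3:28805458-28805527, plus strand: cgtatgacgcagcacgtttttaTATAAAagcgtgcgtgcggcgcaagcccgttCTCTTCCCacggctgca
Rps27l, chr9:66946036-66946105, plus strand: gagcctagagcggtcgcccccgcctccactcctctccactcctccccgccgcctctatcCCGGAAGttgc
Rplp0 and Rps16 have no capitals in this stretch, whereas the other 6 printed stretches hold between 1 and 3 kinds of searched letters. In Rps15a the AAGATGG letters lie on the opposite strand and run into the tract.

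The pyrimidine tract, counted only where it begins within 10 bases of the annotated start, was present in 42% of the 50 members. It was present in 17.8% of all 27025 genes with a window and in 21.7% of 69 mitochondrial ribosomal protein genes. The other letters were searched over the full windows. CTCTTTC was found in 20% of members, against 3.93% of all genes and 2.90% of the mitochondrial set, and in 0 of 7 paralogs with a window. CCGGAAG, the letters of an ETS-type site, was held by 42% of members, 9.14% of all genes and 34.8% of the mitochondrial set. AAGATGG was held by 16% of members and 6.46% of all genes, GGGCGG by 56% and 35.9%, and TATAAA by 12% and 8.88%. AAGATGG and GGGCGG stood at 18.8% and 49.3% in the mitochondrial set, close to the members. The motifs were picked after the windows had been seen, and a match describes letters, not a bound site. The tract's holders had a median titled GFP+ minus titled GFP- difference of 0.56 (log2) in the vehicle pools, and the members with a window but no tract had 0.41. The same split gave 0.62 with and 0.46 without TATAAA, 0.59 and 0.46 for AAGATGG, 0.47 and 0.45 for GGGCGG, 0.47 and 0.46 for CTCTTTC, and 0.46 and 0.47 for CCGGAAG.

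As a check of the sort, S100a5 was lower in titled GFP+ than in titled GFP- arrays, with a difference of -0.91 (log2) for vehicle (limma adjusted p = 0.000715) and -0.97 for undecanal (limma adjusted p = 0.000394). Under the cell type labels, S100a5 would instead be higher in the GFP+ fraction of this S100a5 reporter. Which labels are right was not tested. Omp, the marker of mature olfactory neurons, differed by 0.00 and -0.05. The 12 mature neuron markers stood at array means of 16.13 to 16.37 in titled GFP- and 15.98 to 16.12 in titled GFP+ arrays. Their median difference was -0.17 in vehicle and -0.12 in undecanal pools. Cngb1 was below background in 3 of the 4 groups. Arrays of a group correlated at 0.989 to 0.993 over all probe sets.

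In both agents, ribosomal protein genes were higher in the titled GFP+ fraction. The mean over the 63 genes was log2 11.82 ± 0.200 (SD, n = 4 arrays) in vehicle titled GFP- and 12.26 ± 0.0699 in vehicle titled GFP+. With undecanal it was 11.75 ± 0.108 and 12.24 ± 0.197. The titled GFP- arrays ran from 11.52 to 11.95 (vehicle) and from 11.61 to 11.88 (undecanal), the titled GFP+ arrays from 12.16 to 12.32 and from 12.07 to 12.50, so the fractions did not overlap in either agent. Taking arrays with the same agent and replicate number in their titles as 1 pool, the mean difference within a pool was 0.37, 0.65, 0.42 and 0.32 in vehicle pools 1 to 4 and 0.63, 0.53, 0.46 and 0.37 in undecanal pools 1 to 4. Between 54 and 59 of the 63 genes were higher in titled GFP+ in each pool, while 39.4% to 46.3% of all probe sets were. In 8 of 8 pools 46 of the 63 genes were higher, as were 10.3% of all probe sets.

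With limma over all 22206 probe sets, 24 of the 63 genes passed an adjusted p of 0.05 as higher in titled GFP+ in vehicle pools and 0 as lower. Of all probe sets, 8.82% were called higher and 5.12% lower in that comparison. With undecanal, 31 genes were called higher and 1 lower, beside 8.83% and 4.36% of all probe sets. The median difference of the 63 was 0.46 (log2, interquartile range 0.21 to 0.65) in vehicle and 0.50 (0.33 to 0.71) in undecanal pools, beside -0.11 in each over all probe sets. In vehicle pools 41 of the 63 genes had all 4 titled GFP+ arrays above all 4 titled GFP- arrays, as had 9.83% of all probe sets. In undecanal pools 35 genes did, beside 9.43%.

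The size of this difference depends on the scaling of the arrays. The array medians were higher in titled GFP+ (log2 6.21 to 6.34) than in titled GFP- (5.89 to 5.98). After each array was centred on its median, 9 genes were called higher and 3 lower in vehicle pools, and 11 higher and 4 lower in undecanal pools. The median difference of the 63 was then 0.10 and 0.14, and that of all probe sets -0.47 and -0.46. On that scale the share of the whole array called higher was 7.07% in vehicle and 7.13% in undecanal pools, and the share called lower was 50.6% and 50.1%. Centring arrays on the mature neuron markers, whose array means were lower in titled GFP+, gave 46 and 50 genes called higher. The member median was then 0.68 and 0.70, and that of all probe sets 0.11 and 0.09. Of all 22206 probe sets, 2828 and 2594 were called higher on that scale and 477 and 465 lower. The member median lay above that of all probe sets by the same distance on each of these scales, since centring shifts all probe sets of an array alike.

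**Figure D1:**
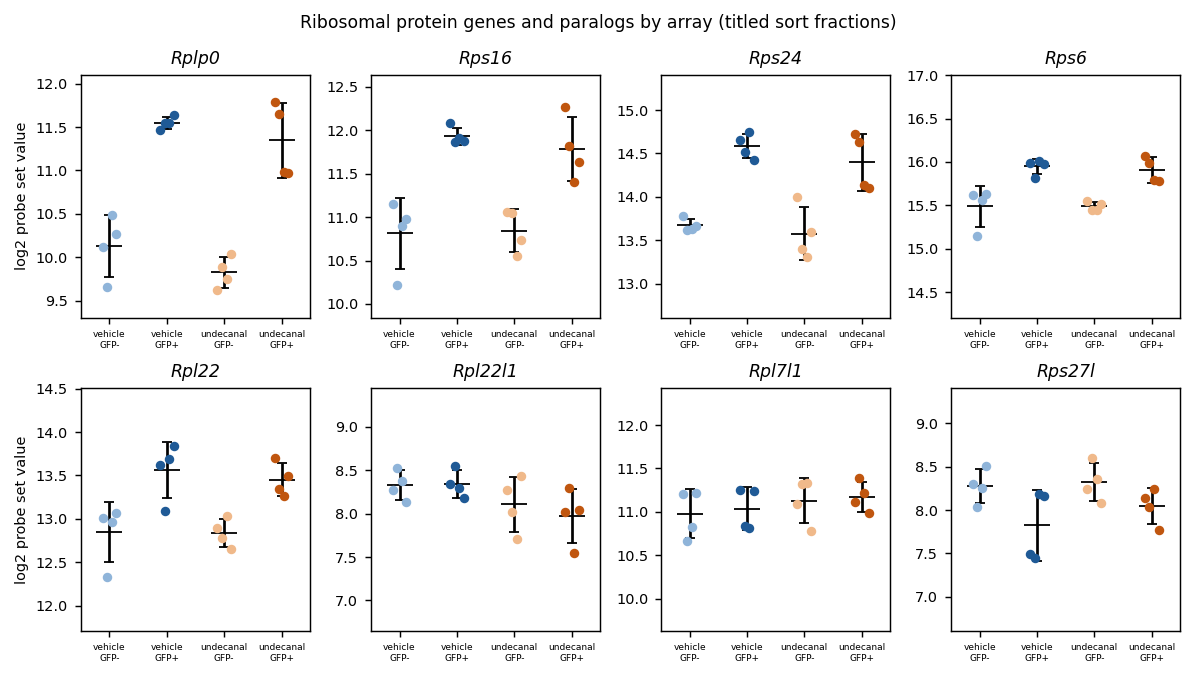
Log2 probe set values of 8 genes on the 16 arrays (vertical axis, the same span of log2 units in every panel) by agent and titled fraction (horizontal axis); points are arrays, horizontal lines are group means and bars are 1 SD of 4 arrays. Rplp0, Rps16, Rps24 and Rps6 lie higher in titled GFP+ in both agents without overlap, whereas the paralogs Rpl22l1, Rpl7l1 and Rps27l overlap between fractions, which holds for the values as deposited.

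The ribosomal stalk recruits the elongation factors, with Rplp0 as its base and Rplp1 as one of its flexible arms. Rplp0 had the largest difference of all members in both agents. Its values were 10.12, 9.65, 10.49 and 10.27 in vehicle titled GFP- and 11.47, 11.55, 11.54 and 11.63 in vehicle titled GFP+. With undecanal they were 9.62, 9.89, 9.75 and 10.04 against 11.79, 11.65, 10.99 and 10.97. Every titled GFP+ array was above every titled GFP- array, and undecanal titled GFP+ replicates 3 and 4 were the lower pair of their group. The difference was 1.42 (SE 0.203), or 2.67-fold, with vehicle (limma adjusted p = 5.43e-05) and 1.52, or 2.87-fold, with undecanal (limma adjusted p = 2.37e-05).

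Rplp1 stood at 14.63 ± 0.186 (SD, n = 4) and 15.10 ± 0.147 in the vehicle fractions and at 14.52 ± 0.173 and 15.13 ± 0.218 in the undecanal fractions. Its difference was 0.46 in vehicle (limma adjusted p = 0.0474) and 0.61 with undecanal (limma adjusted p = 0.00850). The vehicle call was close to the threshold and was lost in 11 of 18 alternative settings.

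Of the 22 small subunit genes, 11 were called higher in vehicle and 13 in undecanal pools, beside 8.82% and 8.83% of all probe sets. Of the 22, 0 were called lower, beside 5.12% and 4.36%, and all 22 had a positive difference in both agents. Rps16, whose tail reaches the peptidyl tRNA, had 11.15, 10.21, 10.90 and 10.98 in vehicle titled GFP- and 12.08, 11.87, 11.91 and 11.88 in vehicle titled GFP+. Its undecanal values were 11.05, 11.05, 10.55 and 10.73 against 12.27, 11.82, 11.40 and 11.64. Vehicle titled GFP- replicate 2 was the lowest array for this gene, and the fractions did not overlap. The difference was 1.12 (SE 0.209) in vehicle (limma adjusted p = 0.000848) and 0.94 with undecanal (limma adjusted p = 0.00426).

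Rps20, a protein of the subunit's head, had the largest SD of the 63 genes in vehicle titled GFP-, 0.698. Its vehicle titled GFP- values were 10.55, 8.98, 9.99 and 10.35, and the titled GFP+ values were 11.18, 11.01, 11.19 and 10.96. The array of vehicle replicate 2 again lay lowest. The difference was 1.12 (SE 0.266) in vehicle (limma adjusted p = 0.00686) and 0.93 with undecanal (limma adjusted p = 0.0253).

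Rps24 and Rps26 are genes of Diamond-Blackfan anaemia, an inherited failure of red cell production caused by loss of a single ribosomal protein. Rps24 read 13.78, 13.61, 13.63 and 13.67 in vehicle titled GFP- and 14.65, 14.52, 14.75 and 14.43 in vehicle titled GFP+. With undecanal it read 13.99, 13.40, 13.31 and 13.60 against 14.73, 14.63, 14.14 and 14.10. The fractions were separate in each agent, with 13.99 and 14.10 as the nearest undecanal values. Rps24 differed by 0.91 in vehicle (limma adjusted p = 0.00103) and by 0.83 with undecanal (limma adjusted p = 0.00261). For Rps26 the differences were 0.89 (limma adjusted p = 0.00128) and 0.97 (limma adjusted p = 0.000615). Both genes kept their calls in all alternative settings run.

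Rps15a rose by 0.90 in vehicle (limma adjusted p = 0.000492), Rps21 by 0.82 (limma adjusted p = 0.0407) and Rps9 by 0.74 (limma adjusted p = 0.0186). In undecanal pools Rps28 rose by 0.96 (limma adjusted p = 0.000240), Rps19, the gene most often mutated in Diamond-Blackfan anaemia, by 0.85 (limma adjusted p = 0.0101) and Rps21 by 0.81 (limma adjusted p = 0.0432). Alternative settings ended the call of Rps21 in 5 of 17 cases for vehicle and 7 of 17 for undecanal, that of Rps9 for vehicle in 4 of 18 and that of Rps20 for undecanal in 4 of 17.

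Rps6, the small subunit protein phosphorylated by S6 kinase downstream of mTOR, stood at 15.62, 15.14, 15.56 and 15.63 in vehicle titled GFP- and 15.99, 15.82, 16.01 and 15.97 in vehicle titled GFP+. The undecanal arrays gave 15.55, 15.45, 15.45 and 15.52 against 16.07, 15.98, 15.79 and 15.79. The fractions were separate in both agents, by less than for Rplp0. Its difference was 0.46 (limma adjusted p = 0.0283) in vehicle and 0.42 (limma adjusted p = 0.0499) in undecanal pools, and the calls were lost in 6 and 10 of 18 alternative settings.

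Rpsa, a small subunit protein also known as the laminin receptor precursor, read 11.14, 10.47, 10.91 and 11.05 against 11.79, 11.40, 11.49 and 11.51 in vehicle pools. The difference was 0.65 (limma adjusted p = 0.0414), with no overlap, and the call was lost in 8 of 17 alternative settings, among them leaving out any vehicle replicate. In undecanal pools it was 0.61 but did not pass (limma adjusted p = 0.0622), and titled GFP- replicate 1, at 11.40, reached the titled GFP+ range of 11.18 to 12.02. With the pool as a block Rpsa passed in both agents (limma adjusted p = 0.00468 and 0.00747).

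The large subunit had 11 of 31 genes called higher in vehicle and 15 in undecanal pools, beside 8.82% and 8.83% of all probe sets. It had 0 called lower, beside 5.12% and 4.36%. Rpl31, which lies beside the exit of the peptide tunnel, had 13.55, 13.03, 13.68 and 13.67 in vehicle titled GFP- and 14.61, 14.44, 14.31 and 14.25 in vehicle titled GFP+. With undecanal the titled GFP- arrays lay between 13.45 and 13.54 and the titled GFP+ arrays between 14.21 and 14.56. The fractions were far apart relative to their spread. The difference was 0.92 (limma adjusted p = 0.000299) in vehicle and 0.80 (limma adjusted p = 0.00117) in undecanal pools. Rpl32 differed by 0.79 with vehicle (limma adjusted p = 0.00498).

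Rpl35a, another Diamond-Blackfan anaemia gene, was the large subunit gene with the largest difference in undecanal pools. It read 8.0, 7.92, 8.09 and 8.20 in undecanal titled GFP- and 9.27, 9.29, 8.87 and 8.96 in undecanal titled GFP+, a difference of 1.05 (limma adjusted p = 6.27e-05). In vehicle pools the titled GFP- arrays lay between 8.18 and 8.78 and the titled GFP+ arrays between 8.85 and 9.15, a difference of 0.47 (limma adjusted p = 0.0474). That vehicle call was lost with the pool or the replicate number as a block, with arrays centred on their median and with the other variance models. It was also lost in a fit of only the groups compared, and when vehicle replicate 2, 3 or 4 or any undecanal replicate was left out.

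Rpl5 and Rpl11 carry the 5S ribosomal RNA and, when ribosome assembly stalls, bind Mdm2 and so stabilise p53. Rpl5 was 14.04 ± 0.186 and 14.50 ± 0.0728 in the vehicle fractions and 13.84 ± 0.138 and 14.55 ± 0.300 in the undecanal fractions. It passed in undecanal pools (0.71, limma adjusted p = 0.00337) and not in vehicle pools (0.47, limma adjusted p = 0.0523). The difference of these differences was 0.24 (95% interval -0.22 to 0.70), so Rpl5 was not shown to differ between agents. Rpl11 differed by 0.44 and 0.43 and passed in neither (limma adjusted p = 0.0898 and 0.102), but with the pool as a block it passed in both (limma adjusted p = 0.0428 and 0.0495).

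Not all large subunit genes stood apart between fractions. In vehicle pools Rpl9 differed by -0.03 (95% interval -0.38 to 0.33) and Rpl37a by -0.02 (95% interval -0.46 to 0.41), whereas in undecanal pools they differed by 0.18 and 0.30, and none of these passed. Rpl4 differed by 0.14 and 0.28 and did not pass either. These 3 genes were chosen after their values were seen.

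**Figure D2:**
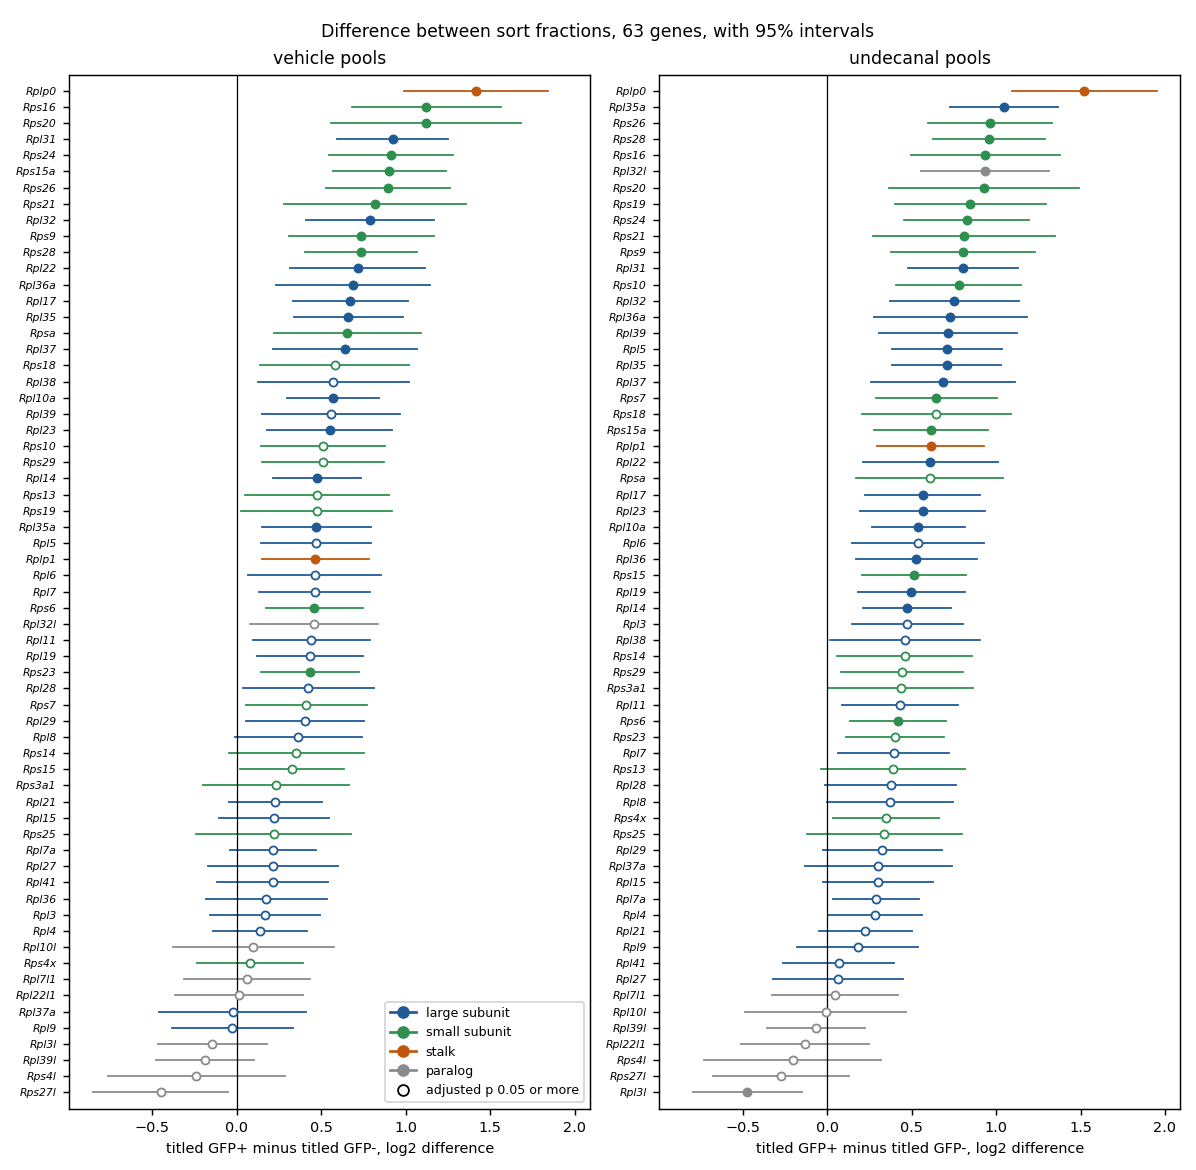
Titled GFP+ minus titled GFP- difference (horizontal axis, log2, with 95% interval) of each of the 63 genes in vehicle pools (left) and undecanal pools (right), ordered by size and coloured by role; filled points have a limma adjusted p under 0.05. The 24 and 32 filled points lie to the right of 0, Rpl3l in undecanal pools excepted, and most paralogs lie at the bottom. With arrays centred on their median, 9 and 11 genes are called higher and 3 and 4 lower.

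The 8 paralogs were described apart from the other genes. Rpl10l, Rpl39l and Rpl3l, below background in every group, are among the 8. In vehicle pools 0 of 8 were called by limma (2 had an unadjusted p under 0.05), with a median of -0.07. Of the other 55 genes 24 were called, with a median of 0.47. Of all probe sets 8.82% were called higher and 5.12% lower, and with 8 genes 0 calls are not set apart from those shares. In undecanal pools 1 was called higher (Rpl32l) and 1 lower (Rpl3l), beside 8.83% and 4.36% of all probe sets. The paralogs' median there was -0.10, against 0.54 in the others. The paralogs' median took the other sign, 0.16 and 0.10, when arrays were centred on the mature neuron markers.

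Rpl22 and Rpl22l1 are a pair in which the Rpl22 protein holds down expression of the paralog. Rpl22 was 13.01, 12.33, 12.97 and 13.07 in vehicle titled GFP- and 13.62, 13.09, 13.69 and 13.84 in vehicle titled GFP+. Rpl22l1 was 8.28, 8.53, 8.38 and 8.13 against 8.34, 8.55, 8.29 and 8.18. Rpl22 was higher by 0.72 (limma adjusted p = 0.0144), with the lowest titled GFP+ array just above the highest titled GFP- array, while Rpl22l1 overlapped fully at a difference of 0.01 (95% interval -0.37 to 0.39). With undecanal the differences were 0.61 (limma adjusted p = 0.0396) for Rpl22 and -0.13 (95% interval -0.51 to 0.25) for Rpl22l1. The calls of Rpl22 were lost in 3 and 6 of 18 alternative settings.

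Rps27l, a gene induced by p53, had 8.30, 8.03, 8.26 and 8.50 in vehicle titled GFP- and 7.49, 7.45, 8.18 and 8.16 in vehicle titled GFP+. Its titled GFP+ replicates 1 and 2 lay below all others and replicates 3 and 4 within the titled GFP- range. Within pools Rps27l was lower in titled GFP+ in 8 of 8, by -0.81, -0.58, -0.08 and -0.34 in the vehicle pools and -0.10, -0.57, -0.11 and -0.31 in the undecanal pools, and it was not called with the pool as a block (limma adjusted p = 0.0706 and 0.285). The difference was -0.45 (limma adjusted p = 0.138) in vehicle and -0.27 (limma adjusted p = 0.425) in undecanal pools. It was called lower in both agents only after arrays were centred on their median.

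Rpl7l1, a factor of ribosome assembly rather than a second Rpl7, differed by 0.06 and 0.05, and Rpl7 by 0.46 (limma adjusted p = 0.0613) and 0.39 (limma adjusted p = 0.119). Rps4l differed by -0.24 and -0.20, and its partner Rps4x by 0.08 and 0.35, with no call. Rpl39 was higher by 0.56 in vehicle (limma adjusted p = 0.0660) and by 0.72 with undecanal (limma adjusted p = 0.0169). Of 17 alternative settings, 4 ended the undecanal call, and with the pool as a block Rpl39 (limma adjusted p = 0.0364) and Rpl7 (limma adjusted p = 0.0420) passed with vehicle too. The paralog of Rpl39, Rpl39l, known from testis, was below background.

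Rpl10l, also known from testis, was below background too, and so was Rpl3l, known from muscle. Values of Rpl3l were 3.91, 3.52, 3.32 and 3.60 in undecanal titled GFP- and 2.94, 3.12, 3.17 and 3.21 in undecanal titled GFP+, and its difference of -0.47 (limma adjusted p = 0.0494) lies between levels that are not above background and was lost in 14 of 16 alternative settings. Its partner Rpl3 differed by 0.17 in vehicle and 0.47 with undecanal (limma adjusted p = 0.548 and 0.0535), and with the pool as a block it passed with undecanal (limma adjusted p = 0.0386).

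Rpl32l was the paralog that rose. It read 7.64, 7.45, 7.60 and 8.19 in undecanal titled GFP- and 9.03, 8.54, 8.47 and 8.58 in undecanal titled GFP+, without overlap, a difference of 0.93 (limma adjusted p = 0.00118). In vehicle pools the difference was 0.46 (limma adjusted p = 0.114). Its sequence can be close to that of Rpl32, and probe sets of near-identical genes and processed copies can share signal, so the value is uncertain.

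Other genes of protein synthesis were taken as lists and described by counts, with each list's median beside the -0.11 of all probe sets. The counts stand beside 8.82% (vehicle) and 8.83% (undecanal) of all probe sets called higher, and 5.12% and 4.36% called lower. Of 11 elongation factor genes, Eef1b2, which reloads the factor that delivers aminoacyl tRNA, rose by 0.77 in vehicle (limma adjusted p = 0.00359) and 0.74 with undecanal (limma adjusted p = 0.00453). Eef1d, another subunit of that complex, rose by 0.61 with undecanal (limma adjusted p = 0.0147). The list's median was 0.17 and 0.14. When arrays were centred on their median it turned to -0.18 and -0.22, and the call of Eef1d was lost (limma adjusted p = 0.166). On that scale 3 of the 11 were called lower in each agent, beside 50.6% and 50.1% of all probe sets.

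Of 28 initiation factor genes, Pabpc1, the poly(A) binding protein, rose by 0.67 in vehicle (limma adjusted p = 0.000824) and 0.64 with undecanal (limma adjusted p = 0.00118). In undecanal pools Eif3f rose by 0.52 (limma adjusted p = 0.00804) and Eif2b5, a subunit of the exchange factor of eIF2, was lower by -0.60 (limma adjusted p = 0.0374). The list's median was -0.08 and 0.03. With arrays centred on their median 18 and 10 of the 28 were called lower, beside 50.6% and 50.1% of all probe sets. The undecanal calls of Pabpc1 (limma adjusted p = 0.0619) and Eif3f (limma adjusted p = 0.253) were then lost. With arrays centred on the mature neuron markers the call of Eif2b5 was lost (limma adjusted p = 0.201) and the vehicle median took the other sign, 0.14.

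None of the 32 ribosome biogenesis genes was called in either agent by limma. Of all probe sets 8.82% (vehicle) and 8.83% (undecanal) were called higher and 5.12% and 4.36% lower. In each agent 2 of the 32 had an unadjusted p under 0.05, and the list's median was -0.07 and -0.04. With arrays centred on their median 15 and 11 of the 32 were called lower, beside 50.6% and 50.1% of all probe sets. When arrays were centred on the mature neuron markers, the list's median took the other sign, 0.16 in each agent. Nolc1, a nucleolar scaffold, differed by -0.40 and Npm1, a nucleolar chaperone, by 0.37 with vehicle (limma adjusted p = 0.0937 and 0.176). Fau, whose product is cut into a small subunit protein, differed by 0.45 in each agent and missed the threshold (limma adjusted p = 0.0653 and 0.0660). Rpl36al differed by 0.06 and 0.46.

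The mitochondrial ribosome is a separate machine with its own proteins. Of 76 such genes, 0 were called higher and 5 lower in vehicle pools, beside 8.82% and 5.12% of all probe sets. The 5 lower calls are thus near the share of the whole array. In undecanal pools 0 passed, beside 8.83% of all probe sets called higher and 4.36% lower, and 8 had an unadjusted p under 0.05. Mrps35 was at -0.67 (limma adjusted p = 0.0464), Mrpl46 at -0.67 (limma adjusted p = 0.0255) and Mrpl37 at -0.61 (limma adjusted p = 0.0228). The median was -0.21 and -0.15. These counts depend on the scaling. With arrays centred on their median 55 and 46 of the 76 were called lower, beside 50.6% and 50.1% of all probe sets. With arrays centred on the mature neuron markers 0 and 0 were called lower. The calls of Mrps35, Mrpl46 and Mrpl37 were then lost (limma adjusted p = 0.209, 0.178 and 0.242), and the list's median took the other sign, 0.01 and 0.05.

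Among 14 regulators of ribosome synthesis, Myc, a transcription factor that drives ribosomal genes, rose by 3.79 in vehicle (limma adjusted p = 2.58e-08) and 3.95 with undecanal (limma adjusted p = 1.55e-08). Pdcd4, a translation inhibitor, rose by 0.88 with vehicle (limma adjusted p = 0.00508). The other 12 genes were not called in either agent. After arrays were centred on their median, 7 of the 14 were called lower in each, beside 50.6% and 50.1% of all probe sets.

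**Figure D3:**
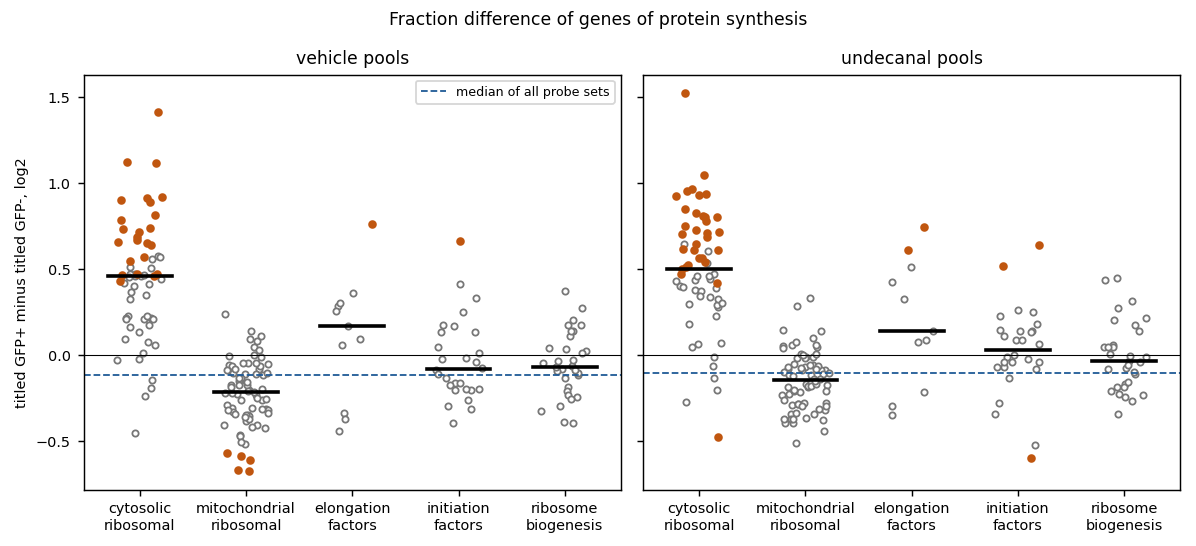
Titled GFP+ minus titled GFP- difference (vertical axis, log2) of every gene of 5 lists of protein synthesis in vehicle (left) and undecanal pools (right); filled points have a limma adjusted p under 0.05, black bars are list medians and the dashed line is the median of all probe sets, -0.11. The cytosolic ribosomal proteins lie at a median of 0.46 and 0.50 and the mitochondrial ones at -0.21 and -0.15, which turns to 0.01 and 0.05 when arrays are centred on the mature neuron markers.

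Markers of other cells moved with the same fractions. In vehicle pools 8 of 10 immature neuron markers were called higher in titled GFP+. Their array means were 9.94 to 10.1 in titled GFP- and 12.4 to 12.5 in titled GFP+. The other 2, Dcx and Tubb3, differed by -0.22 and 0.11 and were not called. Beside this and the later marker counts in vehicle pools, 8.82% of all probe sets were called higher and 5.12% lower. Cxcr4 was below background in titled GFP-. Of 8 progenitor and cell cycle markers 6 were higher (5.38 to 5.78 against 7.47 to 7.93), with Neurog1 and Cdk1 below background in both fractions.

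All 11 neutrophil and monocyte markers were higher (4.39 to 5.03 against 12.6 to 13.3), with Ly6c2, Itgam, Csf3r and Cd14 below background in titled GFP-. Of 6 lymphocyte markers 4 were higher (3.73 to 4.16 against 4.99 to 6.69), and all 6 were below background in titled GFP-. Both erythroid markers (6.42 to 6.98 against 8.91 to 9.82), 5 of 8 sustentacular and gland markers (6.41 to 7.91 against 9.21 to 10.5) and 7 of 7 microvillar markers (4.53 to 4.85 against 6.97 to 7.99) were higher as well. Within the sustentacular and gland list Ltf differed by 7.65, in the range of the neutrophil and monocyte markers (3.87 to 11.3). The others of that list differed by at most 3.82. Of the 12 mature neuron markers 2 were lower and 0 higher. Of the 5 muscle markers 0 were called by limma, and 1 had an unadjusted p under 0.05.

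In undecanal pools 7 of 10 immature neuron markers (9.95 to 10.2 against 12.0 to 12.7), 7 of 8 progenitor markers (5.46 to 5.66 against 7.33 to 7.93), 11 of 11 neutrophil and monocyte markers (4.57 to 5.10 against 12.2 to 13.2) and 5 of 6 lymphocyte markers (3.47 to 4.13 against 4.88 to 7.27) were higher in titled GFP+. So were both erythroid markers (6.03 to 6.81 against 8.52 to 10.3), 5 of 8 sustentacular and gland markers (6.94 to 7.85 against 9.27 to 10.4) and 7 of 7 microvillar markers (4.71 to 5.12 against 7.42 to 8.12), and 2 of 12 mature neuron markers were lower. Of all probe sets 8.83% were called higher and 4.36% lower in undecanal pools. Dcx and Tubb3 went slightly the other way (13.09 and 15.29 in titled GFP-, 13.03 and 15.26 in titled GFP+). Lgr5 was lower in titled GFP+ (4.94 against 4.55), and Neurog1 and Cdk1 were below background in both fractions. In titled GFP- 6 of the 11 neutrophil and monocyte markers and all 6 lymphocyte markers were below background. The part of the cells marked by these lists in the ribosomal protein difference was not tested. In bulk RNA of this kind, fewer cells of a type and less RNA per cell cannot be told apart.

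The fraction differences were alike in size order in both agents. Over the 63 genes they correlated with r = 0.871 (Spearman rho = 0.858), a description across genes from arrays that the comparisons do not share, and genes are not independent replicates. Of the genes called higher, 22 were called in both agents, 91.7% of the 24 and 71.0% of the 31. Rps23 and Rpsa passed in vehicle pools alone, and 9 genes (Rpl19, Rpl5, Rps7, Rps15, Rps10, Rpl39, Rpl36, Rps19 and Rpl32l) in undecanal pools alone, but 0 genes passed the test of the difference between agents. With the pool as a block Rpsa was called in both agents, as were Rpl19, Rps10 and Rpl39.

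Exposure to undecanal moved none of these genes past the threshold. In titled GFP+ arrays 0 of 63 passed with limma, beside 0.00450% of all probe sets, and 0 had an unadjusted p under 0.05. In titled GFP- arrays 0 passed, beside 0% of all probe sets, and 3 had an unadjusted p under 0.05. The interaction gave 0 calls, beside 0% of all probe sets, and 1 unadjusted p under 0.05. In no member were the 4 undecanal and 4 vehicle arrays of a fraction apart, whereas 1.87% of all probe sets were in titled GFP+ and 2.20% in titled GFP-. The median undecanal minus vehicle difference over the 63 genes was -0.03 in titled GFP+ and -0.07 in titled GFP-, and the median interaction was 0.04.

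In titled GFP- arrays the smallest p belonged to Rpl3l, which is below background (0.48, 95% interval 0.16 to 0.80), and to Rpl35a. Rpl35a stood at 8.78, 8.18, 8.46 and 8.63 with vehicle and at 8.0, 7.92, 8.09 and 8.20 with undecanal. Vehicle replicate 2 reached the undecanal range. The difference was -0.46 (95% interval -0.78 to -0.14). Rpl36 differed by -0.43 (95% interval -0.78 to -0.07), Rps19 by -0.42 (95% interval -0.86 to 0.03) and Rpl32l by -0.32 (95% interval -0.70 to 0.06).

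In titled GFP+ arrays the smallest p belonged to Rpl22l1, which read 8.34, 8.55, 8.29 and 8.18 with vehicle and 8.02, 8.30, 7.55 and 8.04 with undecanal. The groups overlapped at undecanal replicate 2. The difference was -0.36 (95% interval -0.74 to 0.02). Rps15a differed by -0.30 (95% interval -0.64 to 0.03) and Rps26 by -0.21 (95% interval -0.58 to 0.16), while Rps27l differed by 0.23 (95% interval -0.18 to 0.63) and Rpl39l, below background, by 0.17.

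The gene with the highest fraction difference, Rplp0, differed between undecanal and vehicle by -0.20 (95% interval -0.63 to 0.23) in titled GFP+ and by -0.31 (95% interval -0.74 to 0.12) in titled GFP-. Rps6 differed by -0.04 (95% interval -0.33 to 0.24) and 0.00 (95% interval -0.28 to 0.29). These intervals leave room for changes of the size of many fraction differences, so they do not show that undecanal had no effect. For the interaction, Rpl35a had the smallest p (0.58, 95% interval 0.12 to 1.03, limma adjusted p = 1.00), followed by Rpl32l (0.48), Rpl3l (-0.33), Rpl36 (0.35) and Rpl3 (0.31).

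**Figure D4:**
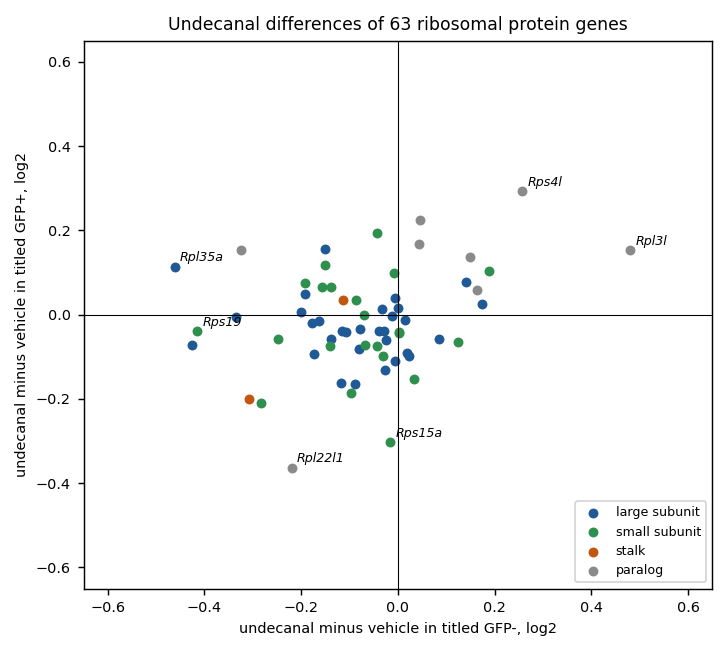
Undecanal minus vehicle difference of each of the 63 genes in titled GFP- (horizontal axis, log2) and titled GFP+ arrays (vertical axis, log2), coloured by role. The points spread around 0 on both axes, between -0.46 and 0.48 in titled GFP- and between -0.36 and 0.29 in titled GFP+, and none passed after adjustment.

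Within groups the ribosomal protein genes varied together from array to array. After each group's mean was taken off, the median Pearson correlation over the 1770 pairs of the 60 genes above background was 0.481 (interquartile range 0.241 to 0.661), and over 2850 pairs of mitochondrial ribosomal protein genes it was 0.252. All pairs share the same 16 arrays, so this is a description and not a test. Rps16 (r = 0.946 with the mean of the others), Rps6 (0.930), Rpl19 (0.914) and Rpl23 (0.913) followed the rest most closely. Rpl10a (-0.0849), Rps4l (-0.0355), Rpl22l1 (0.0872), Rps27l (0.248) and Rps13 (0.280) did so least; these genes were chosen after their values were seen.

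The array of vehicle titled GFP- replicate 2 lay lowest relative to its group, at -0.30 (log2) over the 63 genes, with 5 of 63 above the group mean. That of undecanal titled GFP+ replicate 1 lay highest, at 0.26, with 56 of 63 above it. Leaving out both arrays of vehicle replicate 1, 2 or 3 left 15, 14 or 13 genes called in vehicle pools. Leaving out undecanal replicate 1 or 2 left 17 or 15 in undecanal pools. Rplp0, Rps16, Rps24, Rps26, Rpl31 and Rps28 were called in both agents in every alternative setting that tested them. So were Rpl32, Rps15a and Rps20 in vehicle and Rpl32l, Rpl35a, Rpl35 and Rps10 in undecanal pools.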

How the data were processed

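The authors deposited log2 values, 1 per probe set, made with Affymetrix Expression Console (version not given) per the submitters' processing notes. How probes were summarised and arrays scaled is not given in the sources used here, nor is an annotation build. RNA of 50 to 100 ng per sample was hybridised to Clariom S arrays. After removal of 6640 control rows from 28846, 22206 probe sets entered the tests, of which 19572 had 1 gene in the platform annotation, 0 several and 2634 none. All 63 members matched RefSeq (GRCm38.p6) by identifier. Values were used as deposited and ran from 1.44 to 19.7. The number of arrays limits the precision, and probe set levels were compared only within a gene.

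Groups followed the titles, and limma 3.58.1 (lmFit, eBayes) estimated their 4 means from all 16 arrays together (12 residual and 5.20 prior degrees of freedom), in R 4.3.3. The 5 contrasts (fractions within each agent, agents within each fraction, and the interaction) were taken, each with Benjamini-Hochberg adjustment across the whole array and a threshold of 0.05. The code was tested on simulated data. P-values measure the spread between pools of 3 mice. The background level is the 95th percentile of the group means of 358 vomeronasal and taste receptor rows. Members and lists were chosen with earlier results of these data known.

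Named genes were, per contrast, up to 10 passing members with the largest difference in each direction, or the 5 with the smallest p where none passed, together with the stalk genes, Rpsa, the paralogs and their partners, Rpl5, Rpl11 and Rps6. From each list up to 3 passing genes per direction, or the 2 with the smallest p, were eligible, and part of these are named. Rpl32l was added to the paralogs after its symbol was seen.

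Since 24 mice gave 16 arrays of 3 mice each, fractions must share animals; the replicate numbers in the titles were taken to join the fractions of a pool, which the labels do not say outright. Deviations from the group means correlated at 0.0502 to 0.271 within the 8 pools, 6 of them over 0.1. Alternatives were other scalings, filters, variance models, pool and replicate number blocks, and leaving out each replicate.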

Additional observations from a re-analysis of the deposited data

Results flagged for a closer look

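In 6 of 132 groups of 4 arrays that were checked, 1 array lay far from the other 3 (Dixon's test at its 95% critical value); chance gives about 1 in 20. Vehicle titled GFP- replicate 2 was low for Rpl22 (12.33, nearest 12.97) and for Rps6 (15.14, nearest 15.56). Undecanal titled GFP- replicate 1 was high for Rpsa (11.40, nearest 10.77), and replicate 3 of that group was low for Rpl39 (10.07, nearest 10.59). Undecanal titled GFP+ replicate 1 was high for Rpl31 (14.56, nearest 14.23) and for Rps4x (11.72, nearest 11.24). Vehicle titled GFP- replicate 2 and undecanal titled GFP+ replicate 1 were also the arrays with the lowest and the highest ribosomal protein mean relative to their group.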

How the results depend on the processing

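Called genes numbered 24 in vehicle and 32 in undecanal pools. Centring each array on its median gave 12 and 15 calls (median differences 0.10 and 0.14), and centring on the mature neuron markers gave 46 and 50 (median 0.68 in vehicle pools). Quantile normalization gave 32 and 36 calls (median differences 0.48 and 0.53). Of all 22206 probe sets, 1876 and 1869 were then called higher and 1830 and 1752 lower. Testing the probe sets with a mean of at least 12, which leaves fewer members, gave 21 in undecanal pools. Leaving out a replicate gave 13 to 25 calls in vehicle and 15 to 32 in undecanal pools, with medians of 0.39 to 0.47 and 0.44 to 0.54. With the pool as a block the calls were 31 and 36; the pairing ended the calls of Rpl35a in vehicle and Rpl3l in undecanal pools, and no other member called without it was lost, while Rpl7 and Rpl39 in vehicle pools, Rpsa and Rpl3 in undecanal pools and Rpl11 in both were among those added. With the replicate number across agents as a block, a number the samples only share (2 of 8 correlations over 0.1), they were 24 and 33. For the filters, blocks and left-out replicates the share of all probe sets called is not given here. A changed count under them need not be particular to these genes.

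Undecanal within a fraction and the interaction gave 0 calls under every alternative run. With a replicate left out, the median undecanal difference ran from -0.12 to 0.05 in titled GFP+ and from -0.18 to -0.01 in titled GFP-, and the median interaction from -0.03 to 0.14. Leaving out the 8 paralogs, an alternative chosen after seeing the data, left 24 and 30 calls. No called difference of a named member changed its sign under any alternative run. Levels below the background of log2 4.80 (Rpl10l, Rpl39l, Rpl3l) give no usable difference. The array scaling used by the authors, the opposite GFP labels and the cell makeup of the fractions limit what a difference between fractions can be read as.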
